A study of Mus musculus with 33 samples.

Results

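The genes described here are 34 enzymes of purine, pyrimidine and folate synthesis matched by a list of gene symbols, not by a cut on measured values, among the 21671 genes of the deposited expression table. The list was chosen with earlier results of these data known. All 34 passed the filter on low values in both experiments of the study. RNA from mouse liver was sequenced, and each gene has a value in RPKM, reads normalised to gene length and to mapped reads. The first experiment used C57BL/6 mice of 6 to 8 weeks, taken 4 days after intravenous AAV8-TBG-CRE, a viral vector whose TBG promoter drives Cre recombinase in hepatocytes. All of its 4 groups of 5 livers received the vector: wild type, beta-cat Ex3 (an allele whose recombination removes exon 3 of β-catenin and stabilises the protein), R26-lslMYC (a MYC transgene at Rosa26 behind a removable stop cassette), and both alleles together. The second experiment compared 3 liver nodules from Albeta-CreERT2/R26-lslMYC mice, 3 from mice with beta-cat Ex3 in addition, and wild-type livers (n = 7) collected on day 4 of 4-OHT (4-hydroxytamoxifen, which activates CreERT2). Ages of the mice of the second experiment and any Cre allele of the 4-OHT livers are not given in the labels, so age, treatment and tumour state cannot be told apart there. Whether replicates came from separate animals is not given in the labels. Sex-linked genes read as both sexes within every group except the MYC nodules, so those groups hold more than a single animal. Beyond that, p-values measure only the spread between these samples, which may be technical in part.

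Purine synthesis builds the ring on phosphoribosyl pyrophosphate (PRPP) up to inosine monophosphate (IMP), which is then split into the AMP and GMP branches. Pyrimidine synthesis makes the ring first, joins it to PRPP to give UMP, and ends with CTP. Folate enzymes of the cytosol and the mitochondrion supply the one-carbon units for purines and thymidylate, and ribonucleotide reductase makes deoxynucleotides for DNA. Adult liver makes purines and carries much one-carbon metabolism while most hepatocytes do not divide. MYC is known as a transcription factor that, with its partner MAX, binds the E-box CACGTG in promoters of many growth genes, nucleotide synthesis genes among them.

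For that reason the promoters of the members were searched for CACGTG, a palindrome that reads the same on both strands, from 250 bases before to 50 bases after each annotated start (RefSeq, build GRCm38.p6). Promoters were found for 32 of the 34 members, all but Dhodh and Pfas. CACGTG stood in 5 of the 32 (15.6%), against 8.09% of the 27025 genes with a promoter in the same collection and 9.39% of the 15638 of them that are in the deposited table. The related CACGCG, searched on both strands and not overlapping CACGTG, stood in 2 of 32 (6.25%, Shmt1 and Shmt2) against 10.5% of all genes and 14.6% of genes in the table. A match is a description of the letters only. The 5 windows of 30 bases are shown 5′ to 3′ on the gene's strand with CACGTG in capitals, because 4 of these genes were called higher with MYC at day 4 and 1, Paics, was not.
Atic: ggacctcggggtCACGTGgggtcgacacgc
Tyms: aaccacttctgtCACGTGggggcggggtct
Impdh2: gagctcgataagCACGTGgttacccagctc
Nme1: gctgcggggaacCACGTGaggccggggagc
Paics: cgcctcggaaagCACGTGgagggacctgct
The Atic window is chr1:71557137-71557166 on the plus strand, and its CACGTG begins at base -7, counting the annotated start as base 0. For Tyms it is chr5:30073669-30073698 on the minus strand, with the motif at -61. For Impdh2 it is chr9:108560314-108560343 on the plus strand, with the motif at -110. The Nme1 window, chr11:93968273-93968302 on the minus strand, belongs to the upstream one of its starts, with the motif at -18. The Paics window is chr5:76951087-76951116 on the plus strand, with the motif at -203. Paics and Ppat, neighbours in the purine pathway, are also neighbours on chromosome 5. Their annotated starts, 76951302 on the plus strand and 76951578 on the minus strand, lie 276 bases apart. By their strands the transcribed stretches run across each other there, and exon ends were not looked up. The library kit was stranded but the strand setting of the counting is not given in the sources used here, so reads at that shared end may be divided uncertainly between both genes.

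Depth and library make-up bear on the values. Whole reads recovered from the RPKM, summed to 3.75 M to 7.31 M per library (median 4.98 M) at day 4 and to 6.65 M to 9.82 M (median 8.25 M) in the second experiment. RPKM totals were 320814 to 367521 in the first and 68987 to 97790 in the second, so levels are compared only within an experiment. In the 10 day-4 libraries that held epidermal keratin reads (Krt5, Krt14 and Krt17 summing above 1 RPKM), 3 of 5 wild-type, 3 Ex3, 1 MYC and 3 MYC+Ex3, depth was 3.75 M to 5.10 M reads, against 4.39 M to 7.31 M in the other 10. With group held as a term, 10 of the 34 members differed between those sets (5 higher and 5 lower with keratin reads; limma), as did 25.9% of all genes tested. Reads also grew less than in proportion to depth for abundant genes: at day 4 the median slope of log2 reads on log2 depth was 0.97 for genes at 30 to 60 RPKM, 0.55 at 100 to 150 and 0.37 above 150, and in the second experiment it was 0.80 at 10 to 15 RPKM, 0.39 at 20 to 30 and 0.18 above 30. For less abundant genes they grew more than in proportion, with slopes of 1.53 at 1 to 10 RPKM and 1.25 at 10 to 30 at day 4. In the second experiment the slope was 1.63 at 1 to 3 RPKM and 1.22 at 3 to 10. Depth there was 6.65 M to 8.59 M in 4-OHT livers, 6.67 M, 9.56 M and 9.82 M in MYC and 9.3 M, 7.86 M and 9.14 M in MYC+Ex3 nodules. The part of depth in the changes was not tested. Hepatocyte markers were present in every library, with 10 genes summing to 1360 to 2400 RPKM at day 4 and 248 to 421 RPKM in the second experiment. Myc differed by 0.55 ± 0.31 (log2, SE, n = 5 per group; limma adjusted p = 0.208) in MYC against wild-type livers, while the MYC target Ncl rose by 1.58 ± 0.19 (adjusted p = 1.23e-05) and the β-catenin target Axin2 rose by 2.13 ± 0.35 (adjusted p = 0.0123) in Ex3 against wild-type livers.

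At day 4, MYC alone raised 24 of the 34 members and lowered none. The background over the 13688 genes that were tested was 16.9% called higher and 5.36% called lower (limma, threshold 0.05 on the adjusted p). The median log2 change of the members was 1.04, against 0.07 over all genes tested. None of the 26 members with an unadjusted p below 0.05 was lower. In 20 members every MYC liver lay above every wild-type liver, as did 10.9% of all genes tested. MYC with Ex3 raised 26 members and lowered none, where 17.9% of all genes were higher and 6.18% lower, with medians of 1.13 and 0.05. Its libraries stood wholly above wild type in 22 members, against 13.5% of all genes. The largest rise in both comparisons was that of Rrm2. Every change given here is a difference of log2(RPKM + 1), so that the change of a gene near 0 is understated. In bulk tissue, fewer cells of a type and less RNA per cell cannot be told apart. With a term for the keratin libraries the counts were 26 and 26, and in the libraries without keratin reads alone they were 22 and 22.

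**Figure D1:**
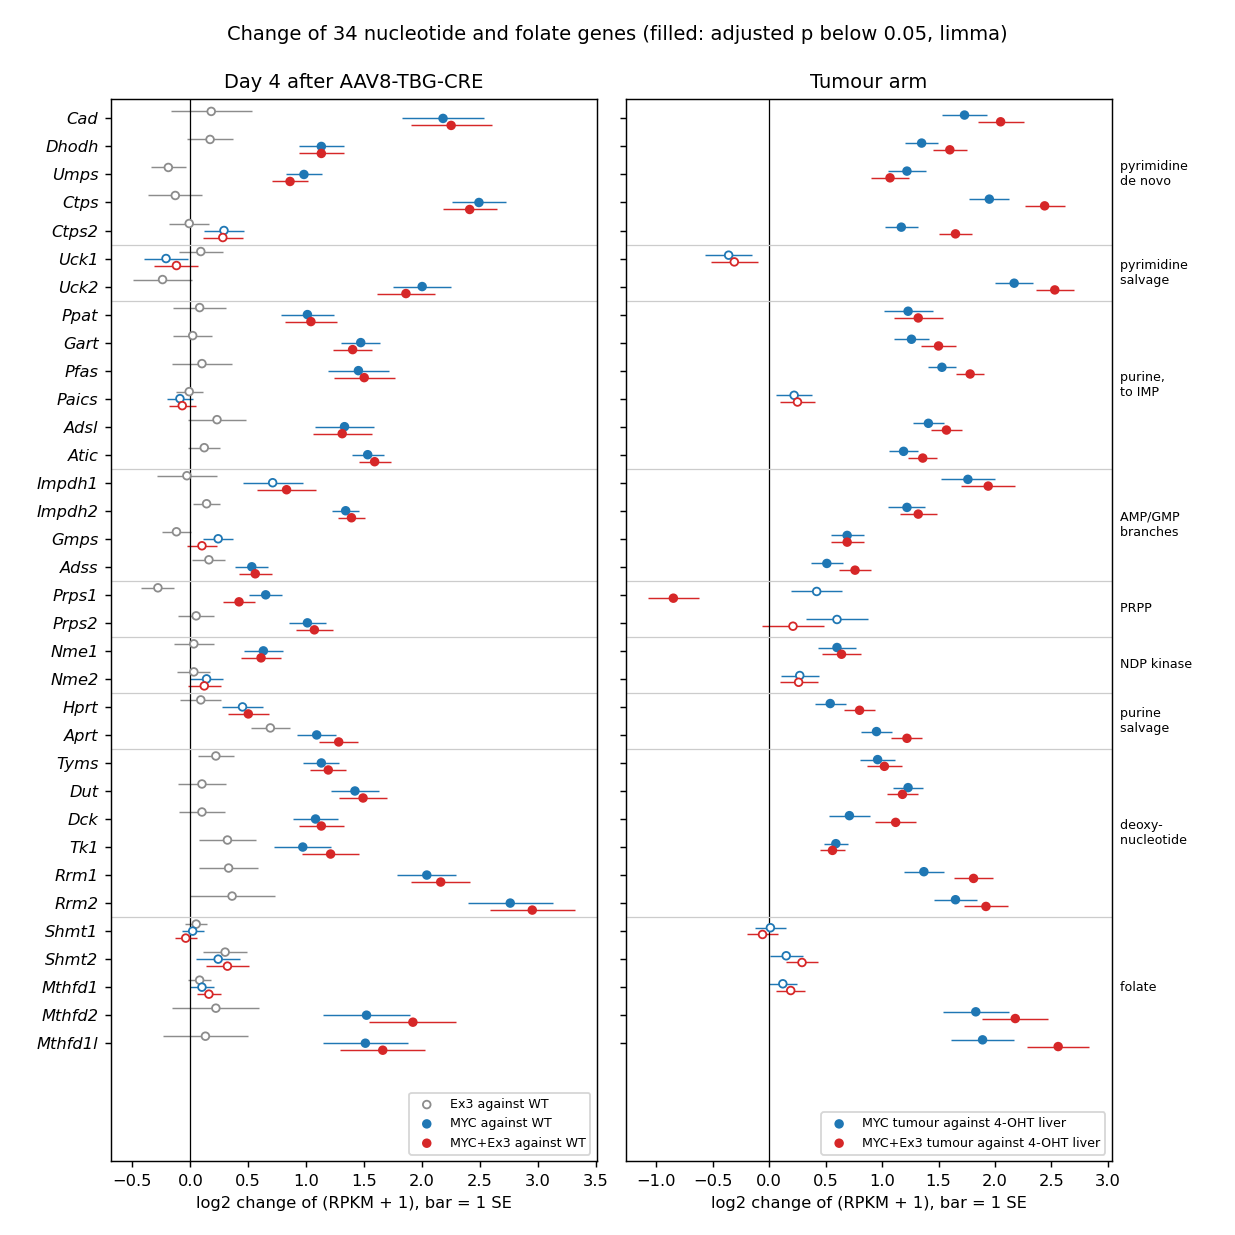
Log2 change of (RPKM + 1) of the 34 genes against wild-type livers at day 4 (left) and against 4-OHT livers (right), with 1 SE; filled points have a limma adjusted p below 0.05, and genes are ordered by step of the pathway. The MYC and MYC+Ex3 points lie close together for most genes, the Ex3 points lie near 0, and Prps1 is the one filled point below 0.

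Pyrimidine synthesis rose at 4 of its 5 de novo genes. Cad, which encodes the protein of the first 3 steps, had RPKM of 6.46, 3.48, 4.02, 5.04 and 4.59 in wild-type livers and 38.0, 25.9, 15.8, 25.1 and 22.5 in MYC livers. Every MYC liver was above every wild-type liver, and the change was 2.18 ± 0.35 (log2, SE, n = 5 per group; limma adjusted p = 1.35e-04). With Ex3 added, Cad was at 49.8 and 54.3 RPKM in the pair of libraries without keratin reads and at 13.8, 22.5 and 13.1 in those with them. Cad was among the genes lower in keratin libraries, by -0.76 on the log2 scale (adjusted p = 0.0113), so its level within that group moved with the library set. Dhodh, the mitochondrial dihydroorotate dehydrogenase, rose by 1.13, and Umps, which makes UMP, rose by 0.98.

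The last step, CTP synthesis, is carried by paralogous enzymes that behaved differently. Ctps RPKM was 2.95, 2.82, 2.25, 4.03 and 3.88 in wild-type livers and 29.1, 20.2, 13.5, 33 and 20.1 in MYC livers, a change of 2.49 ± 0.23 (limma adjusted p = 1.28e-06). Its groups did not overlap. Ctps2 changed by 0.29 ± 0.17 (adjusted p = 0.244) from a similar level, 4.04 to 6.98 RPKM in wild type and 4.79 to 9.39 with MYC, with groups that overlapped. Salvage kinases for uridine and cytidine showed a like split. Uck2 RPKM was 11.6, 15.1, 13.1, 7.86 and 10.1 in wild-type livers and 57.0, 47.8, 34.1, 89.0 and 31.6 in MYC livers (2.0 ± 0.25, adjusted p = 1.47e-05). Uck1 ran from 33.5 to 62.6 RPKM in wild type and from 27.2 to 55.0 with MYC (-0.21 ± 0.19, adjusted p = 0.459).

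Of the 6 genes that build IMP, 5 rose with MYC. Ppat, the amidotransferase that commits PRPP to purines, had RPKM of 16.2, 31.9, 15.7, 16.5 and 22.9 in wild-type and 39.2, 39.0, 36.3, 61.5 and 33.7 in MYC livers (1.01 ± 0.23, limma adjusted p = 0.00304). The groups were apart, with the nearest values at 31.9 and 33.7. Gart, a trifunctional enzyme of later steps, had RPKM of 16.7, 15.2, 18.5, 15 and 15.7 against 56.0, 46.8, 37.4, 59.8 and 37.0 (1.47 ± 0.17, adjusted p = 6.45e-06). Pfas rose by 1.45, Adsl by 1.33 and Atic, which closes the ring, by 1.53, each with groups that did not overlap. Paics, the bifunctional carboxylase and SAICAR synthetase between them, was at 111, 131, 115, 124 and 134 RPKM in wild type and 112, 112, 133, 126 and 96.9 with MYC (-0.09 ± 0.12, adjusted p = 0.637). It was the most abundant of the 6 in every wild-type library, and its reads grew little with depth (slope 0.43 over the 20 day-4 libraries). Among all genes at 100 to 150 RPKM, 6.43% were called higher and the largest log2 change was 0.88, against 21.8% and 4.43 at 10 to 30 RPKM. The part of that compression in the Paics value was not tested.

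In the branches after IMP, Impdh2, the inosine monophosphate dehydrogenase of the GMP branch, rose the most. Its RPKM was 36.7, 40.2, 49.0, 41.9 and 36.9 in wild-type and 122, 105, 90.2, 125 and 87.2 in MYC livers (1.34 ± 0.12, limma adjusted p = 6.81e-07). Its paralog Impdh1 was at 1.42 to 2.90 RPKM in wild type and 2.51 to 7.28 with MYC (0.71 ± 0.26, adjusted p = 0.0535), and was called in MYC+Ex3 livers (0.83 ± 0.26, adjusted p = 0.0235) though not in the libraries without keratin reads (adjusted p = 0.0584), nor with a term for sex (adjusted p = 0.0564; 2 of 5 wild-type and 4 of 5 MYC+Ex3 livers read as male), nor without any 1 of MYC+Ex3 livers 1 and 2 or wild-type livers 2 and 4 (adjusted p up to 0.0831). In MYC livers it passed without MYC liver 2 or 3 or MYC+Ex3 liver 2 or 5, and with a pseudocount of 0.1 (adjusted p = 0.0499). Gmps, which completes GMP, changed by 0.24 (adjusted p = 0.202). Adss of the AMP branch rose by 0.53 ± 0.14 (adjusted p = 0.0105), a call lost when libraries were rescaled (adjusted p = 0.0748).

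PRPP is supplied by Prps1 and Prps2, and both rose. Prps1 RPKM was 21.1, 33.5, 29.2, 26.0 and 25.5 in wild-type and 42.1, 33.1, 43.2, 59.6 and 38.3 in MYC livers (0.65 ± 0.14, limma adjusted p = 0.00255), with groups that overlapped at 33.5 and 33.1. Prps2 RPKM was 14.5, 16.2, 13.5, 10.7 and 12.8 against 33, 24.5, 26.8, 36.9 and 21.3 (1.01 ± 0.16, adjusted p = 1.04e-04), with no overlap. With Ex3 added the change of Prps1 was 0.42 ± 0.14 (adjusted p = 0.0357), a call that ended with libraries rescaled (adjusted p = 0.115), in the libraries without keratin reads (adjusted p = 0.0511) and without any 1 of MYC+Ex3 livers 1, 2 and 4 or wild-type livers 1, 4 and 5 (adjusted p up to 0.0944).

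The nucleoside diphosphate kinases Nme1 and Nme2, which make triphosphates from diphosphates, are near-identical neighbours on chromosome 11, so reads may be divided uncertainly between them. Nme1 RPKM was 81.1, 42.3, 55.7, 75.8 and 60.8 in wild-type and 103, 84.4, 104, 140 and 64.1 in MYC livers (0.63 ± 0.17, limma adjusted p = 0.011). Its groups overlapped, and the call was lost in libraries without keratin reads (adjusted p = 0.291) and with only the compared groups in the fit (adjusted p = 0.0665). Nme2 RPKM was 141, 111, 113, 146 and 125 against 138, 125, 160, 180 and 105, a difference of 0.14 ± 0.14 (adjusted p = 0.536). Of the purine salvage enzymes, Aprt, which reuses adenine, rose by 1.09 ± 0.17 (adjusted p = 9.02e-05). Hprt, which reuses hypoxanthine and guanine, was at 50.5, 34.9, 32.6, 53.8 and 39.9 RPKM against 62.9, 50.8, 55.7, 87.5 and 38.6 (0.45 ± 0.18, adjusted p = 0.0741), and passed without MYC liver 5 (adjusted p = 0.0146) or wild-type liver 4 (adjusted p = 0.0436), with a term for keratin libraries (adjusted p = 0.028) and with sample weights (adjusted p = 0.0349). In MYC+Ex3 livers Hprt was called at 0.50 ± 0.18 (adjusted p = 0.0456), but only 5 of the 20 fits with 1 library left out called it, those without MYC liver 4 or 5, MYC+Ex3 liver 5 or wild-type liver 1 or 4 (adjusted p otherwise up to 0.113). The call also ended in 5 of the 10 other alternatives: with no filter on low values (adjusted p = 0.0684), libraries rescaled (0.128), a term for sex (0.108), only libraries without keratin reads (0.206) and voom on recovered reads (0.0541).

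All 6 deoxynucleotide genes rose. Rrm2, the S-phase subunit of ribonucleotide reductase, had RPKM of 1.70, 5.97, 3.33, 4.25 and 5.65 in wild-type and 35.1, 19.0, 28.4, 66.2 and 27.1 in MYC livers (2.76 ± 0.37, limma adjusted p = 2.22e-05). The lowest MYC liver was above the highest wild-type liver by more than the whole wild-type range. Its partner subunit Rrm1 rose by 2.04. Tyms, thymidylate synthase, was at 10.1, 6.11, 7.63, 7.33 and 7.38 against 20.1, 15.2, 18.8, 22.7 and 13.8 RPKM (1.13 ± 0.16, adjusted p = 3.15e-05). Tk1, the salvage thymidine kinase, was at 37.0, 49.7, 30.8, 17.9 and 14.8 against 70.9, 60.9, 51.9, 44.7 and 48.2 RPKM (0.97 ± 0.25, adjusted p = 0.00714), with groups that overlapped between 44.7 and 49.7. Dut, which clears dUTP, and Dck, which salvages deoxycytidine, rose by 1.42 and 1.08. The sum of 16 proliferation genes moved with them: 75.8 to 107 RPKM in wild-type, 103 to 254 in Ex3, 412 to 774 in MYC and 452 to 770 in MYC+Ex3 livers, and its part in the change of the members was not tested. Of 7 endothelial markers Kdr and Tek fell with MYC, and the sum of the 7 was 163 to 275 RPKM in wild-type and 112 to 215 in MYC livers. With MYC, 2 of 8 stellate and fibroblast markers and 1 of 7 macrophage markers were higher, and 1 of 10 hepatocyte markers was lower (limma). No cholangiocyte, erythroid or T- and B-cell marker tested was called.

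Of the 5 folate genes only Mthfd2 and Mthfd1l, mitochondrial enzymes, rose with MYC. Mthfd2 RPKM was 3.5, 0.434, 0.956, 3.08 and 1.32 in wild-type and 8.92, 6.68, 3.30, 12.7 and 4.19 in MYC livers (1.52 ± 0.38, limma adjusted p = 0.00597). The groups overlapped slightly, and in libraries without keratin reads the adjusted p was 0.0983. Mthfd1l, which releases formate from the mitochondrion, was at 0.558, 1.19, 0.495, 0.522 and 0.422 against 3.73, 1.60, 1.94, 6.86 and 6.34 RPKM (1.51 ± 0.37, adjusted p = 0.00507), with no overlap. The serine hydroxymethyltransferases, which load one-carbon units onto folate, were abundant in every liver. Cytosolic Shmt1 was at 92.8, 112, 105, 79.7 and 93.1 RPKM in wild type and 100, 102, 102, 93.6 and 90.8 with MYC (0.02 ± 0.09, adjusted p = 0.89). Mitochondrial Shmt2 was at 74.0, 73.5, 80.2, 53.7 and 47.5 against 92.2, 96.7, 63.0, 55.1 and 83.1 RPKM (0.24 ± 0.19, adjusted p = 0.398), and Mthfd1, a trifunctional cytosolic enzyme, differed by 0.10 ± 0.10 (adjusted p = 0.518). Slopes of log2 reads on log2 depth at day 4 were 0.88 for Shmt1, 1.68 for Shmt2 and 1.13 for Mthfd1. They were 0.43 for Paics, 0.15 for Nme2, 0.19 for Hprt and 0.25 for Nme1, which was called. In the second experiment the slopes were 0.42 for Shmt1, 0.98 for Shmt2, 0.57 for Mthfd1, 0.58 for Paics and 0.09 for Nme2. There they were 0.44 for Nme1 and 0.95 for Hprt, both called in nodules. Over the members raised by MYC at day 4, slopes there ran from 0.25 for Nme1 to 2.70 for Mthfd1l. Over the members raised in MYC nodules, slopes in the second experiment ran from 0.33 for Umps to 4.17 for Mthfd2. The part of these slopes in the changes was not tested.

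**Figure D2:**
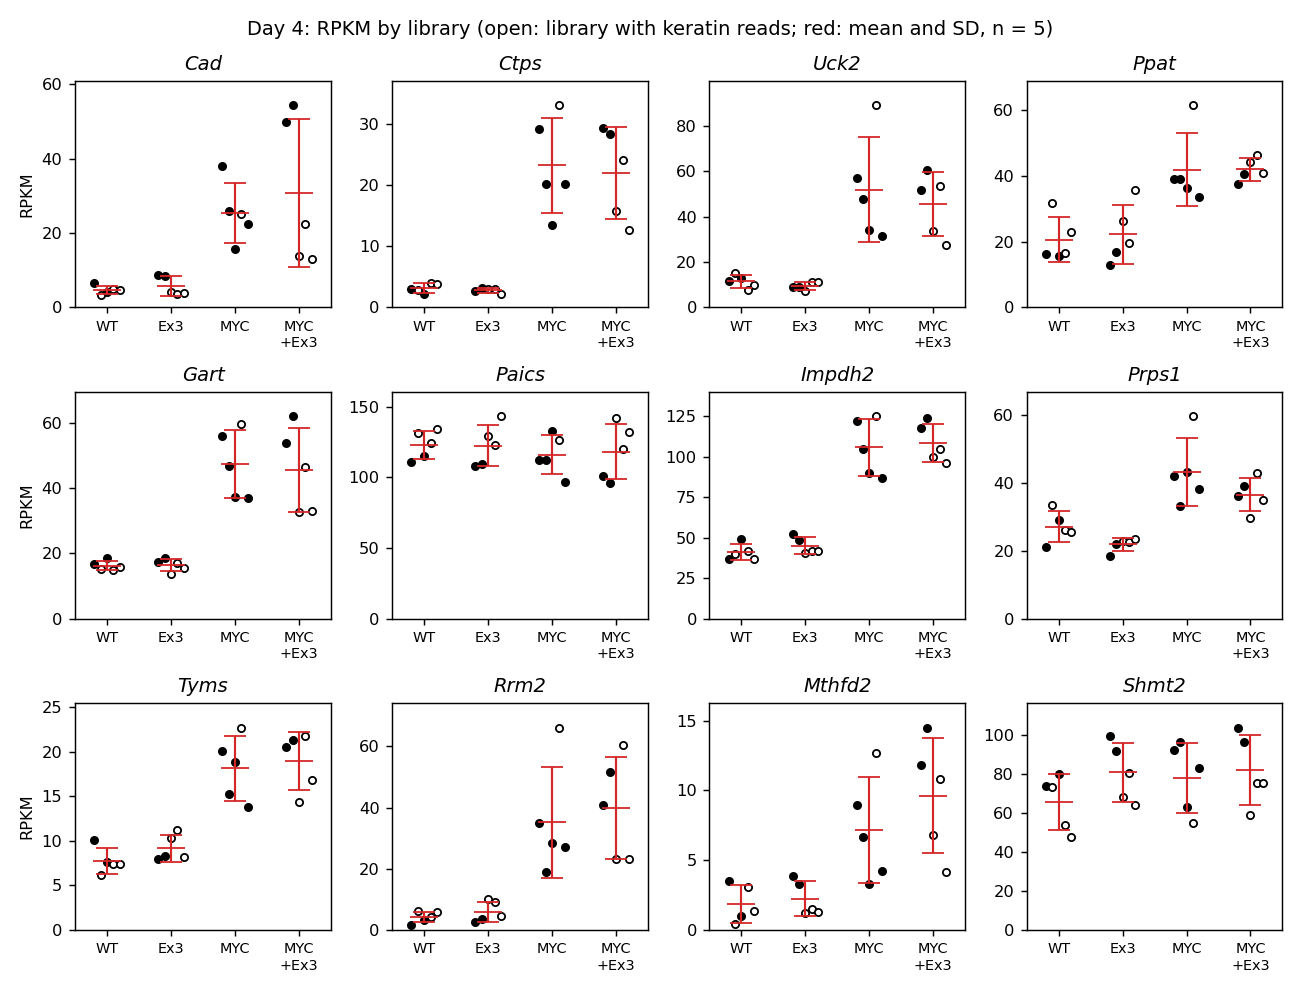
RPKM of 12 genes in each of the 20 day-4 livers by group, with the mean and SD in red (n = 5) and libraries with keratin reads as open points. The MYC groups lie above wild type for Cad, Ctps, Uck2, Ppat, Gart, Impdh2, Tyms and Rrm2, while the groups overlap for Paics and Shmt2.

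With β-catenin activation and no MYC, none of the 34 members was called (limma), where 0.132% of all genes were called higher and 0% lower. Calls were so rare over all genes that none among the members is near that share. One member, Aprt, had an unadjusted p below 0.05: it was at 24.7 to 57.5 RPKM in wild-type livers and at 61.3, 64.4, 65.5, 69.7 and 83.0 in Ex3 livers, a difference of 0.69 ± 0.17 (adjusted p = 0.192) with groups that did not overlap, and it passed with sample weights (adjusted p = 0.028). The largest difference downward was that of Prps1, -0.28 ± 0.14 (adjusted p = 0.952). With Ex3 added to MYC no member was called either, again near the share over all genes, of which 0.19% were higher and 0% lower. No member had an unadjusted p below 0.05 and no group of libraries stood apart. Differences ran from -0.22 ± 0.14 for Prps1 to 0.40 ± 0.38 for Mthfd2. Voom on the recovered reads also called 0 members in both comparisons. Against Ex3 livers, MYC+Ex3 livers had 25 members higher and 0 lower, where 16.4% and 4.7% of all genes were called; of these, Adss was at the threshold (0.40 ± 0.14, adjusted p = 0.0496) and kept its call in 3 of 20 fits with 1 library left out. The test of whether the MYC effect itself differed with Ex3 called 0 members and 0% of all genes in either direction, with 1 member, Aprt, at an unadjusted p below 0.05 (-0.50 ± 0.24, adjusted p = 1).

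In MYC nodules 26 members were higher than in 4-OHT livers and none lower, where 36.2% of all 11854 genes tested were higher and 13.7% lower. The medians were 1.18 for the members and 0.19 for all genes. In 23 members all nodules lay above all 4-OHT livers, against 26.3% of all genes. MYC+Ex3 nodules had 26 members higher and 1, Prps1, lower, against 42.3% and 18.4% of all genes, with medians of 1.2 and 0.23. All their nodules were above all 4-OHT livers in 26 members, against 38.2% of all genes. With libraries rescaled, higher calls fell from 72.6% to 53.4% of all calls in MYC nodules and from 69.7% to 55.2% in MYC+Ex3 nodules, and the medians of all genes became 0.01 and 0.04. The members' higher counts were 26 and 26 under that scaling, and the lower counts were 1 (Uck1) and 3 (Uck1, Prps1 and Shmt1). At day 4 rescaling took the share of higher calls from 75.9% to 59.1% for MYC, from 74.4% to 61.2% for MYC+Ex3 and from 77.7% to 67% for MYC+Ex3 against Ex3, with 23, 24 and 24 members higher.

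Other cell types differed between nodules and liver as well. The sum of 7 endothelial markers was 42.9 to 71.7 RPKM in 4-OHT livers, 24 to 39.6 in MYC and 25.7 to 30.2 in MYC+Ex3 nodules. For 7 macrophage markers it was 104 to 140, 26.6 to 109 and 47.9 to 59.1, and for 6 erythroid markers it was 14 to 31.8, 11.1 to 73.1 and 69 to 88.6. Of the endothelial markers 5 of 7 were lower in each kind of nodule, of the macrophage markers 6 and 5 of 7, and the erythroid markers were higher at 0 of 6 in MYC and 6 of 6 in MYC+Ex3 nodules (limma). Hepatocyte markers were lower at 0 of 10 in MYC and 5 of 10 in MYC+Ex3 nodules, with sums of 305 to 415 RPKM in 4-OHT livers, 260 to 421 and 248 to 319. The T- and B-cell markers, 4 of 8 tested, were lower at 0 and 4 of them, with sums over the 8 of 6.4 to 13.4, 2.55 to 11.6 and 3.41 to 3.89. Of 8 stellate and fibroblast markers 4 were higher and 2 lower in MYC nodules, and 2 higher and 4 lower in MYC+Ex3 nodules, with sums of 34.8 to 44.5, 27.7 to 54 and 23.6 to 31.7. One of 2 cholangiocyte markers tested was lower in MYC+Ex3 nodules and none in MYC nodules, and the sum over 6 was 9.97 to 14.7, 6.68 to 19.7 and 3.67 to 8.45. No marker of these lists was at 0 throughout a group. The sum of 16 proliferation genes was 45.1 to 74.7, 139 to 231 and 225 to 272. Their part in the values of the members was not tested.

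Pyrimidine genes rose in nodules at every de novo step. Cad had RPKM of 1.52 to 3.5 (median 2.75) in 7 4-OHT livers, 8.33, 9.67 and 15.1 in MYC nodules and 13.2, 13.2 and 14.5 in MYC+Ex3 nodules. The changes were 1.73 ± 0.20 (SE, n = 3 against 7; limma adjusted p = 2.02e-05) and 2.05 ± 0.20 (adjusted p = 1.91e-06), with no overlap. Ctps was at 0.834 to 2.06 (median 1.46) in 4-OHT livers, 7.55, 6.41 and 10.8 in MYC nodules and 11.0, 10.9 and 13.7 in MYC+Ex3 nodules (1.95 and 2.44). Uck2 rose the most in MYC nodules, by 2.17 ± 0.17 (adjusted p = 7.62e-07), from 1.4 to 2.92 (median 2.36) to 13.4, 10.1 and 17.8 RPKM, and reached 15.4, 17.5 and 19.8 in MYC+Ex3 nodules. Ctps2, not called at day 4, was at 0.807 to 1.30 RPKM (median 1.06) in 4-OHT livers, 2.39, 4.86 and 4.25 in MYC and 5.28, 5.34 and 6.12 in MYC+Ex3 nodules (1.17 ± 0.15 and 1.65 ± 0.15). Uck1 lay at 9.77 to 17.1 RPKM (median 12.9) against 12.8, 7.75 and 8.52, a difference of -0.36 ± 0.21 (adjusted p = 0.155), which passed when libraries were rescaled (adjusted p = 0.0156), with voom on recovered reads (adjusted p = 0.0191) and without the first MYC nodule (adjusted p = 0.0436).

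In the nodules 5 of the 6 genes that build IMP rose, and Paics again did not pass. Ppat was at 2.81 to 7.46 RPKM (median 4.70) in 4-OHT livers, 10.0, 10.2 and 16.2 in MYC and 12.3, 12.1 and 13.4 in MYC+Ex3 nodules (1.23 ± 0.22 and 1.32 ± 0.22). Gart was at 5.37 to 7.84 (median 5.96), 19.9, 11.6 and 18.6, and 17.4, 19.6 and 21.4 (1.26 ± 0.16 and 1.5 ± 0.16). Neither gene had a nodule within the range of the 4-OHT livers. Paics was at 16.1 to 25.6 (median 20.0), 27.0, 20.3 and 23.7, and 20.9, 25.6 and 25.8 RPKM, differing by 0.22 ± 0.16 (limma adjusted p = 0.262) and 0.25 ± 0.16 (adjusted p = 0.188). Impdh2, at 10.8 to 16.4 (median 12.6), rose to 43.1, 25 and 31.3 and to 31.1, 34.9 and 38.2 RPKM. Impdh1 rose by 1.76 ± 0.24 (adjusted p = 5.62e-05) and 1.94 ± 0.24, and Gmps by 0.69 ± 0.15 in each kind of nodule. Among all genes at 20 to 30 RPKM, where Paics lay (mean 22 RPKM), 18.9% were called higher in MYC nodules and the largest log2 change was 5.19, against 42% and 3.52 at 3 to 10 RPKM.

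The PRPP synthetases, both raised at day 4, were not called higher in either kind of nodule. In the direct test of the MYC effect between experiments neither passed (limma, Prps1 -0.28, adjusted p = 0.65, and Prps2 -0.42, adjusted p = 0.551). For MYC+Ex3, Prps1 passed as smaller in nodules. Prps2 did not (-0.91, adjusted p = 0.0579), though it passed with sample weights (adjusted p = 0.0495). Prps1 was at 5.65 to 7.59 RPKM (median 5.90) in 4-OHT livers, at 9.16, 5.87 and 13.2 in MYC nodules and at 3.32, 5 and 1.75 in MYC+Ex3 nodules. All MYC+Ex3 nodules were below all others. The fall was -0.85 ± 0.23 against 4-OHT livers (limma adjusted p = 0.0048) and -1.26 ± 0.27 against MYC nodules (adjusted p = 0.0146), the one member called between both kinds of nodule, where 2.02% of all genes were higher and 2.1% lower. Without the third MYC+Ex3 nodule, the lowest, and the only one of the 6 read as female from sex-linked genes (the labels give no sex), the values were -0.55 (adjusted p = 0.0506) and -0.97 (adjusted p = 0.081). A term for sex, used since Prps1 is on the X chromosome, left -0.88 (adjusted p = 0.00214) and -1.13 (adjusted p = 0.0244). The difference between nodules also lost its call without the first MYC+Ex3 nodule (adjusted p = 0.0529), with only those 2 groups in the fit (adjusted p = 0.223) and with sample weights (adjusted p = 0.15). With only the 4-OHT livers whose titles carry S15, the fall against 4-OHT livers had an adjusted p of 0.0526. Prps2 was at 3.89 to 5.07 (median 4.62), 9.25, 4.73 and 9.64, and 7.81, 8.56 and 2.30 RPKM, called in neither (0.60 ± 0.27 and 0.21 ± 0.27). It passed in MYC nodules with only the compared groups in the fit (adjusted p = 0.0124) and in MYC+Ex3 nodules with sample weights (adjusted p = 0.0231). Without the third MYC+Ex3 nodule Prps2 passed in both (adjusted p = 0.00849 and 0.00764), and without the second MYC nodule both Prps1 and Prps2 passed as higher in MYC nodules (adjusted p = 0.0236 and 0.0198). No member was called higher between nodules, by limma on RPKM or by voom, and those with an unadjusted p below 0.05 were Prps1, Ctps, Ctps2 and Rrm1, 4 in all. Leaving out the second MYC nodule gave a call for Ctps2 (adjusted p = 0.0435), and leaving out the third one for Pfas (adjusted p = 0.0488).

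Nme1 lay at 9.37 to 16 RPKM (median 12.3) in 4-OHT livers, at 24.5, 14.8 and 19.1 in MYC and at 17.6, 20.4 and 20.8 in MYC+Ex3 nodules (0.60 ± 0.17, limma adjusted p = 0.00969, and 0.64 ± 0.17, adjusted p = 0.00519). Without the first MYC nodule the call for MYC nodules was lost (adjusted p = 0.0572). Nme2 lay at 17.7 to 25.7 (median 23.7), 36.2, 22 and 23.7, and 22.5, 28.4 and 28.6, with differences of 0.27 ± 0.17 and 0.26 ± 0.17 that were not called. Hprt rose to 16.3, 14.7 and 16 and to 16.3, 19.5 and 21.6 from 8.47 to 13.2 (median 10.6) RPKM (0.54 ± 0.14, adjusted p = 0.00522, and 0.80 ± 0.14, adjusted p = 1.77e-04). Aprt rose by 0.95 and 1.22.

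Deoxynucleotide genes were higher in both kinds of nodule, 6 of 6. Rrm2 was at 2.48 to 5.09 RPKM (median 4.34) in 4-OHT livers, 10.4, 16 and 20.0 in MYC and 15.9, 19.3 and 19.8 in MYC+Ex3 nodules (1.65 ± 0.19, limma adjusted p = 1.90e-05, and 1.92 ± 0.19). Tyms went from 1.77 to 2.87 (median 2.18) to 3.75, 5.50 and 7.20 and to 5.51, 5.84 and 5.46 (0.96 ± 0.15 and 1.02 ± 0.15). Tk1 had the smallest rise of the 6, from 9.49 to 12.9 (median 11.5) to 17.6, 17.4 and 18.2 and to 15.5, 19.8 and 16.8 (0.59 ± 0.11 and 0.56 ± 0.11). For these 3 genes all nodules were above all 4-OHT livers. The folate genes again divided. Mthfd2 went from 0.425 to 1.03 RPKM (median 0.794) to 1.86, 5.46 and 10.6 and to 5.97, 7.49 and 6.46 (1.83 ± 0.29, adjusted p = 1.91e-04, and 2.18 ± 0.29). Mthfd1l went from 0.133 to 1.46 (median 0.272) to 2.18, 4.59 and 7.67 and to 6.69, 6.79 and 9.56, and its 2.56 ± 0.28 was the largest rise in MYC+Ex3 nodules (adjusted p = 3.80e-06). Shmt1 stayed within 18.1 to 27.8 RPKM in all 13 libraries (0.01 ± 0.14 and -0.06 ± 0.14), Shmt2 was at 17.4 to 23.2 (median 21.7), 24.9, 19.9 and 26.6, and 21.2, 24.3 and 34.4 (0.15 and 0.29), and neither was called. In MYC+Ex3 nodules Shmt1 was called lower with libraries rescaled (-0.28, adjusted p = 0.0487) and with voom on recovered reads (-0.24, adjusted p = 0.0341), and Shmt2 was called higher without the first nodule (adjusted p = 0.0332).

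**Figure D3:**
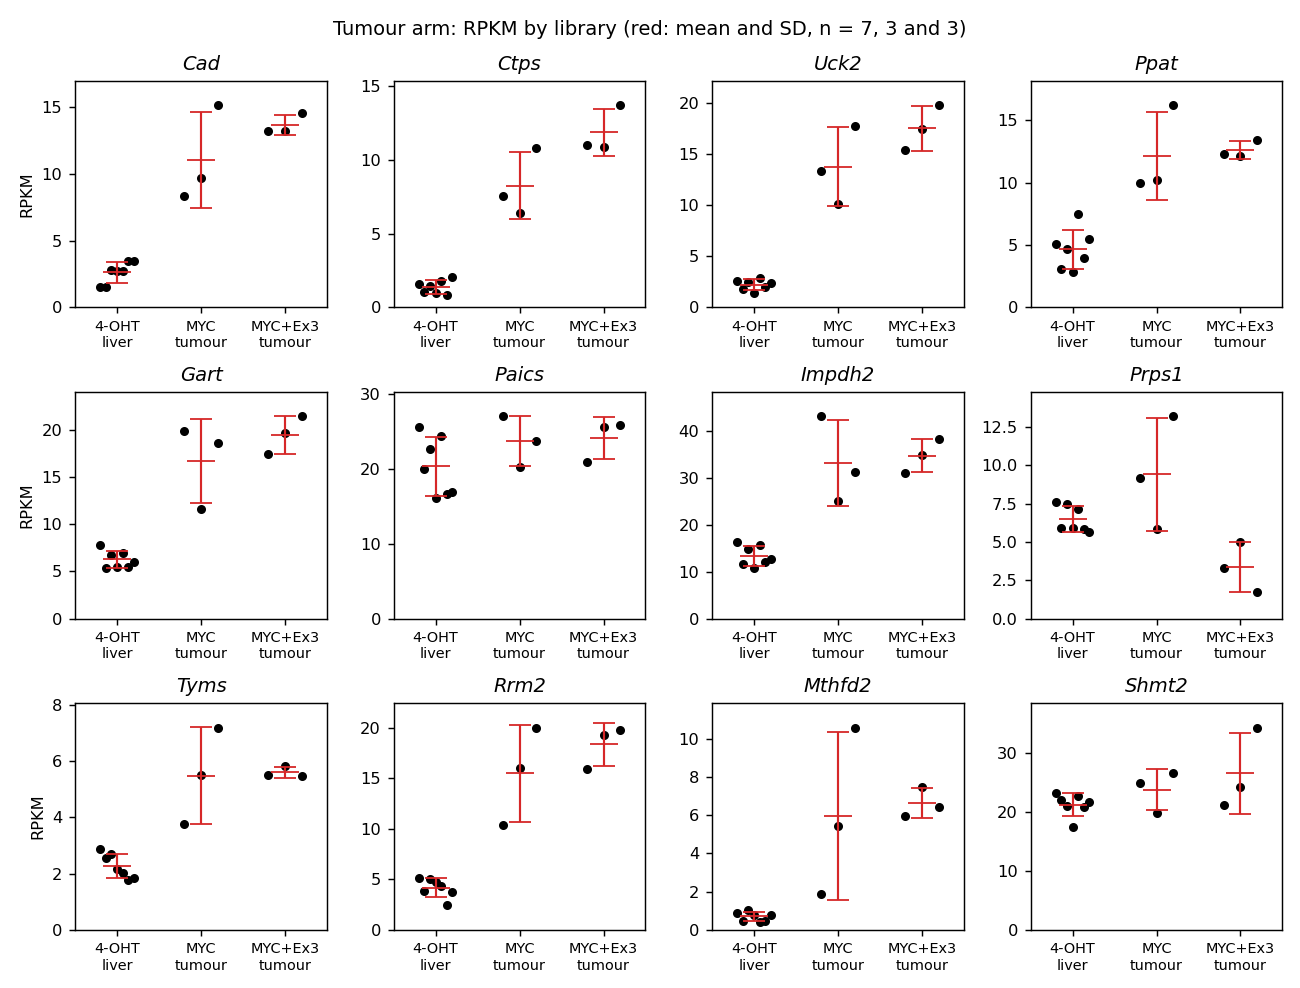
RPKM of the same 12 genes in 7 4-OHT livers, 3 MYC nodules and 3 MYC+Ex3 nodules (labelled tumour), with the mean and SD in red. Cad, Ctps, Uck2, Gart, Impdh2, Tyms, Rrm2 and Mthfd2 lie higher in both kinds of nodule, Paics and Shmt2 overlap, and Prps1 is lowest in MYC+Ex3 nodules.

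Between experiments, which share no library, the same members were largely called. Of the 24 raised by MYC at day 4, 22 (91.7%) were raised in MYC nodules, and those are 84.6% of the 26 raised there. For MYC+Ex3, 24 were raised in both (92.3% of each 26). In each kind of nodule 76.5% of all 34 members were raised, against 36.2% and 42.3% of all genes. The share raised in both experiments was not counted over all genes, so the overlap is not shown to be particular to the members. Raised at day 4 and not in nodules were Prps1 and Prps2 in either pairing, and Prps1 was lower in MYC+Ex3 nodules (-0.85, limma adjusted p = 0.0048). Raised in nodules and not at day 4 were Ctps2, Impdh1, Gmps and Hprt for MYC, and Ctps2 and Gmps for MYC+Ex3. Uck1, Paics, Nme2, Shmt1, Shmt2 and Mthfd1 were called higher with MYC or MYC+Ex3 in neither experiment. With sample weights, Shmt2 (0.63, limma adjusted p = 0.00401) and Mthfd1 (0.20, adjusted p = 0.0499) were called higher in MYC+Ex3 against wild-type livers, and Paics was called lower (-0.24, adjusted p = 0.0469). Over the 34 members the log2 changes of both experiments had a Pearson r of 0.83 for MYC and 0.78 for MYC+Ex3, a description over genes, which are not independent and share libraries within an experiment. No such r was computed over all genes.

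Whether an effect differed between experiments was tested directly, on values rescaled library by library because of the different RPKM scales. For MYC, 2 members passed, both with larger effects in nodules, where 2.53% of all genes had larger and 3.8% smaller effects. The difference was 1.07 ± 0.23 for Ctps2 (limma adjusted p = 0.00331) and 1.31 ± 0.34 for Impdh1 (adjusted p = 0.0188). For MYC+Ex3, 4 were larger and 1 smaller in nodules, against 9.34% and 10.1% of all genes: Ctps2 by 1.62 ± 0.23, Impdh1 by 1.39 ± 0.34, Mthfd1l by 1.72 ± 0.50 and Dhodh by 0.74 ± 0.23 were larger, and Prps1 was smaller by -1.45 ± 0.29 (adjusted p = 4.41e-04). On RPKM as deposited, Impdh1 did not pass for MYC (adjusted p = 0.139), nor did Impdh1, Mthfd1l and Dhodh for MYC+Ex3 (adjusted p = 0.0514, 0.272 and 0.273), while Gmps passed there as larger in nodules (0.59, adjusted p = 0.0465). With a pseudocount of 0.1 neither Impdh1 for MYC (adjusted p = 0.0653) nor Mthfd1l for MYC+Ex3 (adjusted p = 0.158) passed, and Impdh1 for MYC did not with sample weights (adjusted p = 0.0677). Without the third MYC nodule Impdh1 did not pass for MYC (adjusted p = 0.115). Without the third MYC+Ex3 nodule neither Mthfd1l (adjusted p = 0.0504) nor Dhodh (adjusted p = 0.0802) passed, nor did Dhodh without the second (adjusted p = 0.0582). Rrm2, the largest riser at day 4, had a difference of -0.93 ± 0.45 for MYC that did not pass (adjusted p = 0.239). Age, the vector, 4-OHT and tumour state differ together between the experiments and cannot be told apart.

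Ratios between related enzymes within a library were compared for 9 pairs in 4 comparisons, 36 exact permutation tests over libraries (two-sided, p-values adjusted over all 36). Of these, 24 passed. The pairs were chosen with earlier results of these data known, and the ratios use the same values as the limma calls. A ratio that passed is therefore no independent support for those calls. The smallest p possible was 0.00794 with 5 against 5 libraries and 0.00833 with 3 against 7. Uck2 over Uck1 showed the largest change in nodules: the log2 ratio was -2.02 ± 0.36 (SD, n = 5) in wild-type and 0.20 ± 0.92 in MYC livers (exact permutation adjusted p = 0.015), and -2.07 ± 0.26 in 4-OHT livers (n = 7) against 0.46 ± 0.47 in MYC and 0.77 ± 0.35 in MYC+Ex3 nodules (n = 3; adjusted p = 0.015 for each). Uck1 was thus the higher of both in control livers, while the ratio was near or above 0 where MYC was active. The ratios Ctps over Ctps2, Nme1 over Nme2, Mthfd1l over Mthfd1 and Rrm2 over Rrm2b, the p53-inducible subunit, also rose in all 4 comparisons. Ctps over Ctps2 went from -0.51 ± 0.45 to 1.68 ± 0.49 with MYC at day 4 (exact permutation adjusted p = 0.015), and in MYC nodules the difference was 0.78 with libraries that overlapped (adjusted p = 0.0375), lost with a pseudocount of 0.1 (adjusted p = 0.0724), without the first or the third MYC nodule and without any 1 of 4-OHT livers 1, 2, 3, 4 and 6 (adjusted p up to 0.129). Mthfd1l over Mthfd1 in MYC nodules did not pass without the second (exact permutation adjusted p = 0.069) or the third nodule (adjusted p = 0.0714). Nme1 over Nme2 rose by 0.49 in both day-4 comparisons and by 0.33 and 0.37 in nodules.

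Prps1 over Prps2 fell in both MYC+Ex3 comparisons and did not pass with MYC alone, except at day 4 without MYC liver 5 (adjusted p = 0.0423) or wild-type liver 1 (adjusted p = 0.0272; exact permutation). It was 0.95 ± 0.26 (SD, n = 5) in wild-type, 0.59 ± 0.20 in MYC (exact permutation adjusted p = 0.0643) and 0.30 ± 0.15 in MYC+Ex3 livers (adjusted p = 0.026), and 0.40 ± 0.11 in 4-OHT livers, 0.22 ± 0.22 in MYC (adjusted p = 0.118) and -0.65 ± 0.39 in MYC+Ex3 nodules (adjusted p = 0.015). Shmt2 over Shmt1 passed in MYC+Ex3 nodules (0.34, adjusted p = 0.015) and in none of the other 3 comparisons. Impdh2 over Impdh1 did not pass in any of the 4 comparisons: its differences were 0.63 and 0.56 at day 4 and -0.54 and -0.62 in nodules, with exact permutation adjusted p from 0.06 to 0.113. With a pseudocount of 0.1 it passed as lower in MYC (-1.01, adjusted p = 0.048) and MYC+Ex3 nodules (-1.12, adjusted p = 0.015). With 1 library left out it passed as higher in MYC livers without MYC liver 5 (adjusted p = 0.0248) and in MYC+Ex3 livers without MYC+Ex3 liver 2 (adjusted p = 0.0457), and as lower in MYC+Ex3 nodules without 4-OHT liver 4 (adjusted p = 0.0204). Adss over its muscle-type paralog Adssl1 passed in MYC+Ex3 livers (1.09, adjusted p = 0.026), and in MYC livers only without MYC liver 5 (exact permutation adjusted p = 0.0343). In nodules that ratio passed only without 4-OHT liver 1 for MYC (adjusted p = 0.0357) and without the third MYC+Ex3 nodule for MYC+Ex3 (adjusted p = 0.04).

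**Figure D4:**
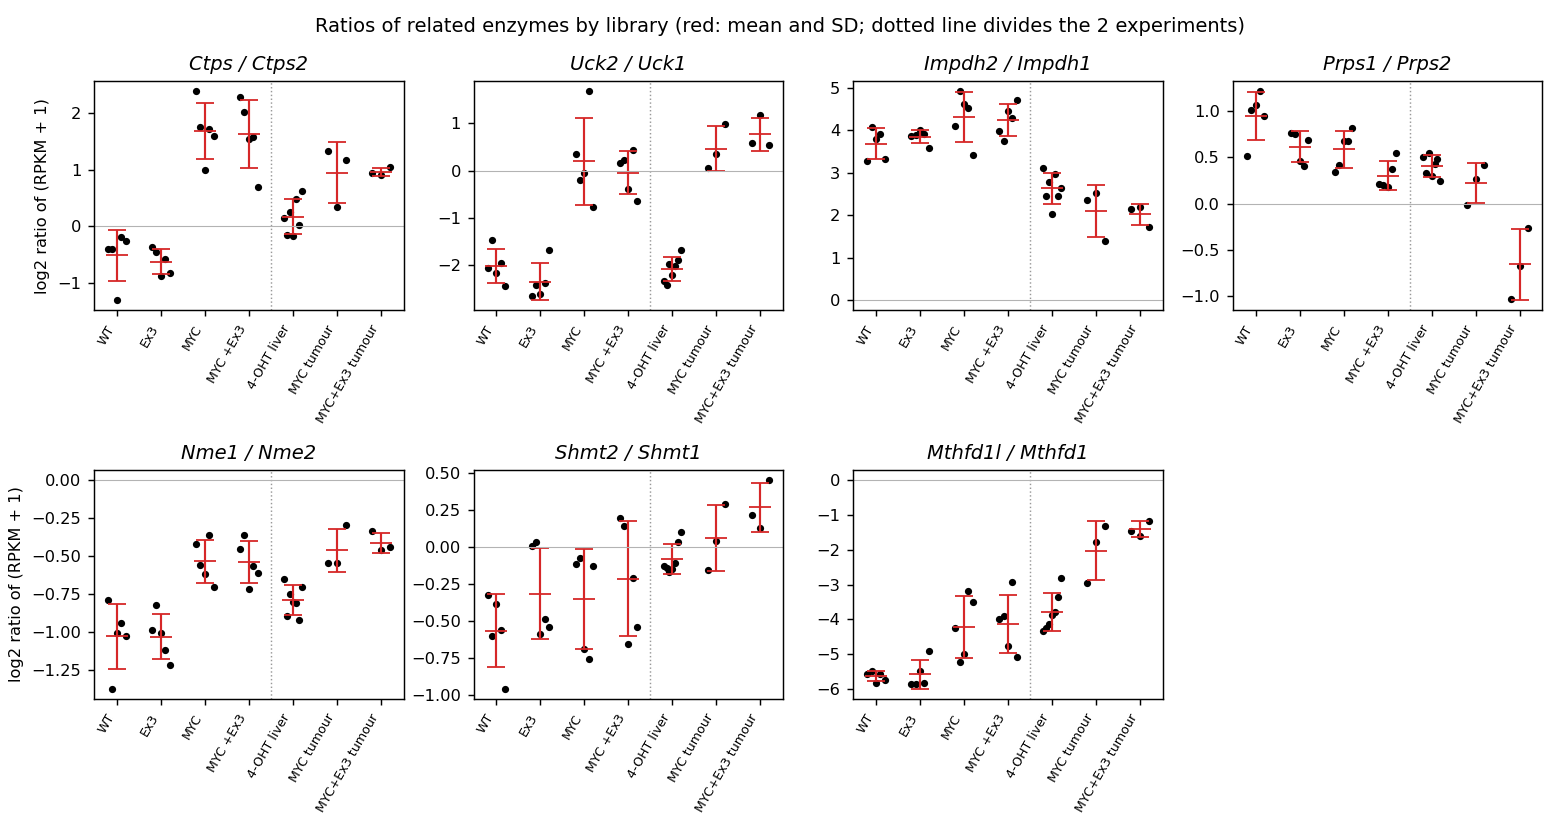
Log2 ratio of (RPKM + 1) for 7 of the pairs in each of the 33 libraries, with the mean and SD in red; 5 livers per day-4 group, 7 4-OHT livers and 3 nodules per kind. The ratio Uck2/Uck1 lies above wild-type or 4-OHT livers in every library where MYC is active. Ctps/Ctps2 does so too, except that MYC nodules overlap 4-OHT livers. Prps1/Prps2 falls below 0 in all MYC+Ex3 nodules.

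Other genes of the same pathways were counted in 3 lists, beside 16.9% of all genes higher and 5.36% lower with MYC at day 4 and 36.2% higher and 13.7% lower in MYC nodules. No difference between the lists and all genes was tested. Of 24 further genes of nucleotide interconversion, MYC at day 4 raised 8 (33.3%) and lowered 0 (11 with an unadjusted p below 0.05), and MYC nodules had 11 of 23 tested (47.8%) higher and 1 lower. Of 22 further folate and methionine-cycle genes tested at day 4, 3 (13.6%) rose and 2 fell, and in MYC nodules 5 of 21 (23.8%) rose and 3 fell. Of 17 genes of nucleotide breakdown, 2 (11.8%) rose and 3 fell at day 4, and in MYC nodules 3 of 15 (20%) rose and 7 fell. The largest rises in both were those of Dctd, Slc19a1 and Nme4. Dctd, the dCMP deaminase that feeds thymidylate synthesis, was at 0 to 0.313 RPKM in wild-type and 5.36 to 16.2 in MYC livers (3.04 ± 0.34, limma adjusted p = 5e-06), and at 0.0368 to 0.115 in 4-OHT livers and 3.42 to 8.45 in MYC nodules (2.62 ± 0.17). No group overlapped with its control, although wild-type livers held at most 4 reads of the gene. Slc19a1, the reduced folate carrier, was at 1.94 to 5.57 RPKM in wild-type and 11.5 to 39.7 in MYC livers (2.34 ± 0.28), and rose by 2.06 ± 0.23 in MYC nodules. Nme4, a mitochondrial nucleoside diphosphate kinase, rose by 1.90 ± 0.35 and 2.01 ± 0.23. The largest falls at day 4 were those of Dpyd (-0.86 ± 0.23, adjusted p = 0.00962) and Dpys (-0.58 ± 0.20, adjusted p = 0.043), which degrade pyrimidines, and of Aldh1l1 (-0.40 ± 0.14, adjusted p = 0.0415), which oxidises formyl-tetrahydrofolate. In MYC nodules they were those of Upp2, a uridine phosphorylase (-1.30 ± 0.48, adjusted p = 0.035), Xdh, the xanthine dehydrogenase of purine breakdown (-1.14 ± 0.20, adjusted p = 4.51e-04), and Gda, the guanine deaminase (-1.01 ± 0.14, adjusted p = 7.25e-05).

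Level and change can be set side by side for the members. The members not called with MYC in either experiment, apart from Uck1, were 5 abundant genes: Paics, Nme2, Shmt1, Shmt2 and Mthfd1. Impdh2, Aprt and Nme1, which were called, had means over all day-4 libraries of 75.1, 77.1 and 79.9 RPKM, beside 76.7 for Shmt2. Those means include the MYC groups, in which the called genes are high. In wild-type livers alone the means were 40.9, 43.7 and 63.1 RPKM, against 65.8 for Shmt2. The part of level in these calls was not tested. Among all genes, the share called higher with MYC at day 4 was 15.6% at 60 to 100 RPKM, 6.43% at 100 to 150 and 2.76% above 150, where the largest log2 change was 0.73.

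**Figure D5:**
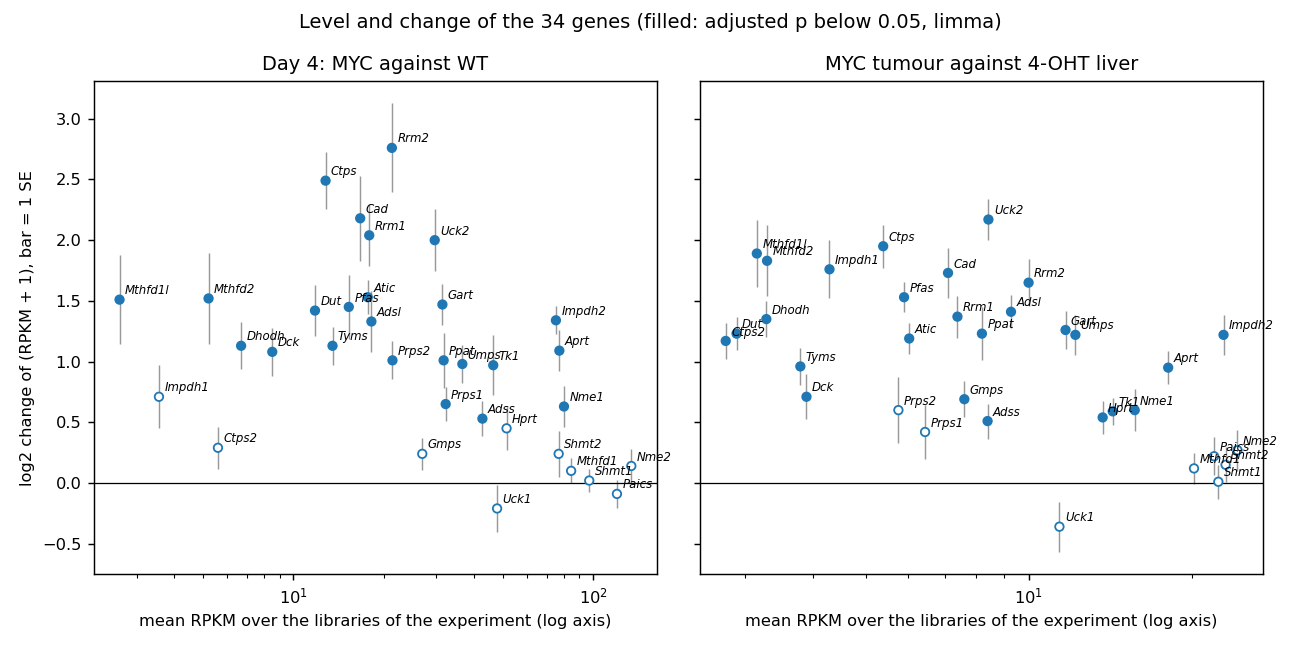
Log2 change of (RPKM + 1), with 1 SE, against the mean RPKM over the libraries of the experiment (log axis) for the 34 genes with MYC at day 4 (left) and in MYC nodules (right); filled points have a limma adjusted p below 0.05. Paics, Nme2, Shmt1, Shmt2 and Mthfd1 are open points at the right of both panels, where Impdh2 is a filled point above them, and the open points further left are Impdh1, Ctps2, Gmps, Uck1 and Hprt at day 4 and Prps2, Prps1 and Uck1 in nodules.

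The authors' deposited table, which holds their own log2 fold changes and adjusted p-values, called 23 members higher with MYC at day 4, of which 22 were also called here, and 27 higher and 1 lower (Uck1) in MYC nodules. Of those 27, 26 were also called here, and the other was Prps2, with a log2 change of 0.53 in that table. It called 24 higher in MYC+Ex3 livers, 26 higher and 3 lower (Uck1, Prps1 and Shmt1) in MYC+Ex3 nodules, 0 in Ex3 livers and 0 for MYC+Ex3 against MYC livers. In that table Prps1 was the only member called between the kinds of nodule, lower in MYC+Ex3.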

How the data were processed

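The deposited table gives RPKM per gene and library as computed by the authors, together with the authors' own log2 fold changes and adjusted p-values per comparison. Per the submitters' processing notes the tools were TopHat2 2.0.8, TopHat, SAMtools, featureCounts 1.4.5-p1 and DESeq2, with build mm9; their order, and the RPKM and strand settings, are not given in the sources used here. No column belonged to another series. RPKM values were whole multiples of 1 read (tolerance 0.0001) for 20485 of 20485 genes with a value (100%), which gave reads per library (voom on them called 2212 genes higher and 733 lower with MYC at day 4); totals count reads in genes, and their sampling error covers counting only.

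Groups were compared within an experiment on log2(RPKM + 1) with limma 3.58.1 (R 4.3.3; empirical Bayes with trend, two-sided, Benjamini-Hochberg over all genes tested, called at adjusted p below 0.05). A gene was tested at 1 RPKM or more in at least 3 libraries. The fits included all groups of an experiment and no covariate. Differences between experiments used all 33 libraries, each rescaled by its median ratio. Paired enzymes were compared by exact permutation. The limma fit and the recovery of reads were checked on simulated data, and the permutation test was not.

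Values are given for 19 enzymes chosen to cover each arm whatever their result, for the largest rise and fall in a comparison, and for the 3 other called pathway genes that rose or fell most with MYC in each experiment. The members, lists and pairs were chosen with earlier results of these data known. Replicate numbers follow accession order and pair nothing, and sex was read from Xist and Y-linked genes. Alternatives were other pseudocounts, filters and scalings, covariates, subsets and leaving out each library; sample weights, voom on recovered reads and leaving out libraries in the tests between experiments were chosen after seeing the data.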

Additional observations from a re-analysis of the deposited data

Results flagged for a closer look

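In 8 of 170 sets of libraries examined (34 genes in each of 5 groups of 5 or 7), 1 library stood apart from the rest by Dixon's test at the 95% level, which chance does in about 1 in 20 groups. At day 4 these were Prps1 at 18.6 RPKM in Ex3 liver 1, Ppat at 61.5 in MYC liver 4, Shmt1 at 110 in MYC+Ex3 liver 5, Ctps2 at 6.98 in wild-type liver 3 and Mthfd1l at 1.19 in wild-type liver 2. Among 4-OHT livers they were Impdh1 at 1.91 (highest) and Shmt2 at 17.4 (lowest), both in liver 4, and Mthfd1l at 1.46 in liver 7. Over the 24 members raised by MYC at day 4, MYC liver 4, the one MYC library with keratin reads, was the highest of its group in 18 and MYC liver 5 the lowest in 14. MYC liver 5, read as female, had 86.1 RPKM of Xist but also 4.74 RPKM of the Y-linked Ddx3y. The other day-4 livers read as female had 0 to 0.134 RPKM of Ddx3y. The source of those reads in MYC liver 5 was not tested. In MYC+Ex3 livers, keratin libraries 3 and 5 were the lowest in 10 and 11, keratin library 4 was the highest in 9, and library 2, without keratin reads, was the highest in 12. Of the nodules, MYC nodule 3 was the highest in 18 and MYC nodule 2 the lowest in 16, while MYC+Ex3 nodule 3 was the highest in 17 and MYC+Ex3 nodule 1 the lowest in 19. Of the 4-OHT livers, liver 1 was the highest in 14.

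The MYC effect was larger in nodules than at day 4, on the log2 scale, for Ctps2 by 1.07 and for Impdh1 by 1.31 (limma, test of the difference). For MYC+Ex3 it was larger for Dhodh by 0.74, Ctps2 by 1.62, Impdh1 by 1.39 and Mthfd1l by 1.72, and smaller for Prps1, by -1.45.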

How the results depend on the processing

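Called in every alternative and every fit with 1 library left out were 21 of the 24 members raised by MYC at day 4, 22 of 26 for MYC+Ex3, 22 of 25 for MYC+Ex3 against Ex3, 24 of 26 in MYC nodules and 26 of 27 in MYC+Ex3 nodules, and none of these changed direction. Leaving out 1 library gave 24 to 25, 23 to 26, 23 to 25, 25 to 28 and 26 to 27 members higher in these 5 comparisons. Where a count moved, the cause was not tested. With sample weights (chosen after seeing the data) Paics was lower in MYC+Ex3 against wild type (1 member) and against Ex3 (1), Aprt was higher with Ex3 alone (1), and Uck1 and Prps1 were lower in MYC+Ex3 nodules (2). The same weights called Shmt2 and Mthfd1 higher in MYC+Ex3 against wild type, Hprt higher in MYC livers and in MYC+Ex3 against Ex3, and Prps2 higher in MYC+Ex3 nodules, and no longer called Adss and Nme1 in MYC nodules. Lower calls in MYC nodules, 0 as reported, were 1 with libraries rescaled, 1 with voom and 0 to 1 with 1 library left out. Lower calls in MYC+Ex3 nodules, 1 as reported, were 3 rescaled, 3 with voom, 0 with S15 controls only and 0 to 1 with 1 library left out. Between kinds of nodule the lower count of 1 became 0 with only those groups fitted and 0 with sample weights, and ran from 0 to 1, as did the higher count, with 1 library left out. For the difference of the MYC effect between experiments the 2 larger effects became 1 with a pseudocount of 0.1, 1 on RPKM as deposited, 1 with sample weights and 1 to 2 with 1 library left out. For MYC+Ex3 the 4 larger effects became 2 as deposited (Ctps2, which kept its call, and Gmps, which gained one) and 2 to 6 with 1 library left out (6 without MYC liver 4), and the 1 smaller effect became 3 with sample weights and 1 to 3 with 1 library left out. Of 36 ratios 24 passed, 25 with a pseudocount of 0.1 and 22 to 27 with 1 library left out. Depth per gene limits the low genes. Mthfd1l had a median of 0.522 RPKM in wild-type livers (8 to 23 reads) and 0.272 in 4-OHT livers. For Mthfd2 the medians were 1.32 (4 to 39 reads) and 0.794. Such values are near or below the pseudocount of 1. No paired analysis was possible because replicate numbers are only accession order.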
